A study of Zea mays with 18 samples.

Results

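The genes described here are the maize genes of phenylpropanoid, lignin, flavonoid and anthocyanin synthesis. They were taken from the deposited table by words in the gene name or protein description: phenylalanine ammonia, cinnamate, cinnamoyl, cinnamyl, caffeoyl, caffeic, 4-coumarate, chalcone, flavon, anthocyan and laccase. Names with MYB and 3 genes (Zm00001d007403, Zm00001d017077 and Zm00001d047452) were left out. The words matched 245 of the 50118 genes. Of these, 137 reached 1 FPKM (fragments per kilobase of gene, scaled to library size) in at least 3 of the 18 libraries and are the gene set. The other 108 stayed below that level, and 53 of them were at 0 in all 18 libraries. The third-highest value was 1.04 FPKM for the genes just inside the level filter, Zm00001d016424 and Zm00001d028599, and 0.988 and 0.887 FPKM for those just outside, Zm00001d046705 and Zm00001d052042. Most descriptions name the most similar protein of another species, so an enzyme name here is an annotation by similarity.

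Leaves of seedlings were sampled from the inbred line B73 and from a zmzfp69 line in the B73 background, a mutant in a zinc finger transcription factor, after 0, 24 and 48 h at 4 °C. Before cold, seedlings were kept at 25 °C under a 16 h light period, per the labels. The growth text also describes a return to 25 °C after cold, which the treatment text for these leaves does not. Each of the 6 groups had 3 libraries, and the labels describe 50 seedlings per biological replicate. The label fields differ between mutant and knock-down as the word for the line, and give neither the kind of allele nor the number of lines behind it. No name or description in the table holds zfp69, so the level of the targeted gene was not analysed here. Reads recovered from the FPKM values totalled 14795794 to 19070464 per library. Leaf markers were high in each of the 18 libraries, with 2579 to 42182 FPKM summed over the light-harvesting genes and 1748 to 17838 FPKM over the Rubisco small subunit genes. Replicate 2 of the zmzfp69 group at 24 h stood apart from its group, at -68.6 on the first principal component of all genes, against 25.6 and 40.6 for the other replicates of its group. Replicate 1 of B73 at 48 h was also apart, at 106.4 against 46.6 and 45.3.

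Phenylpropanoid synthesis starts when phenylalanine ammonia-lyase (PAL) removes ammonia from phenylalanine to give cinnamate, which cinnamate 4-hydroxylase (C4H) and 4-coumarate:CoA ligase (4CL) turn into coumaroyl-CoA. From there, hydroxycinnamoyltransferase (HCT), caffeoyl shikimate esterase (CSE), caffeoyl-CoA O-methyltransferase (CCoAOMT), cinnamoyl-CoA reductase (CCR) and cinnamyl alcohol dehydrogenase (CAD) lead to the monolignols, which laccases and peroxidases oxidise into lignin in cell walls. Chalcone synthase (CHS) and chalcone isomerase (CHI) instead lead to flavonoids, and in maize the pigment loci colorless2, anthocyaninless1, anthocyaninless2 and bronze1 code for enzymes on the way to anthocyanins. The 137 genes comprised 29 entry genes (10 PAL, 4 in the C4H class, 15 in the 4CL class), 54 genes of the monolignol branch (among them 16 HCT, 3 CSE, 5 CCoAOMT, 20 CCR and 9 CAD), 49 flavonoid and anthocyanin genes and 5 laccases.

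After 48 h at 4 °C most of the set was not called, 97 of the 137 genes in B73 and 82 in zmzfp69, and the called genes went in both directions. In B73, 14 genes were higher and 26 lower than at 0 h, 29.2% of the 137 against 23.2% of all 23141 genes tested (12.7% higher and 10.5% lower), on log2(FPKM + 1) with limma at an adjusted p under 0.05. In zmzfp69, 30 were higher and 25 lower, 40.1% of the 137 against 36.5% of all genes called (18.5% higher and 18% lower). Of the 14 genes higher in B73, 11 were also higher in zmzfp69 (78.6% of the B73 genes and 36.7% of the zmzfp69 genes). Of the 26 lower in B73, 14 were also lower in zmzfp69 (53.8% of the B73 genes and 56% of the zmzfp69 genes), and 0 moved in opposite directions. Over all tested genes the same shares were 82.3% and 56.7% for higher and 70.3% and 41% for lower calls, with 6 genes in opposite directions. The median log2 fold change over the 137 genes was -0.43 in B73 and 0.14 in zmzfp69, against -0.03 over all tested genes in each. With each library scaled to its own read total instead of the deposited factor, the median of all genes moved to -0.44 in B73 and -0.63 in zmzfp69, and the calls became 9 higher and 42 lower in B73 and 20 higher and 35 lower in zmzfp69. With that scaling 8.24% of all genes were higher and 20.9% lower in B73, and 10.1% and 35.3% in zmzfp69. The 40 calls in B73 fell to 18 without 48 h replicate 1, which stood apart, 21 without 0 h replicate 1 and 24 without 0 h replicate 2. The counts over all genes fell as well, from 2943 higher and 2431 lower to 1757 and 1263 without 48 h replicate 1. They were 1969 and 1338 without 0 h replicate 1, and 1966 and 1425 without 0 h replicate 2.

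After 24 h fewer genes had moved. In B73, 5 were higher and 4 lower, 6.57% of the set against 9.35% of all genes (5.26% higher and 4.09% lower). In zmzfp69, 2 were higher and 12 lower, 10.2% of the set against 9.58% of all genes (3.76% higher and 5.82% lower). Scaled to read totals, the B73 counts were 5 higher and 13 lower, against 4.78% and 8.03% of all genes. Without replicate 2 of zmzfp69 at 24 h, the library that stood apart, the zmzfp69 counts were 11 higher and 16 lower. The counts over all genes rose too, from 869 higher and 1347 lower to 1658 and 1866. Leaving out replicate 1 or 3 of zmzfp69 at 24 h, or replicate 1 or 2 of zmzfp69 at 0 h, gave totals of 5, 7, 7 and 8. The B73 total was 4 without 24 h replicate 2 and 5 without 0 h replicate 2 or 3. Over all genes both counts also fell in each of these cases. The gene counts of each role class at both times stand in the plot of calls by class.

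**Figure D1:**
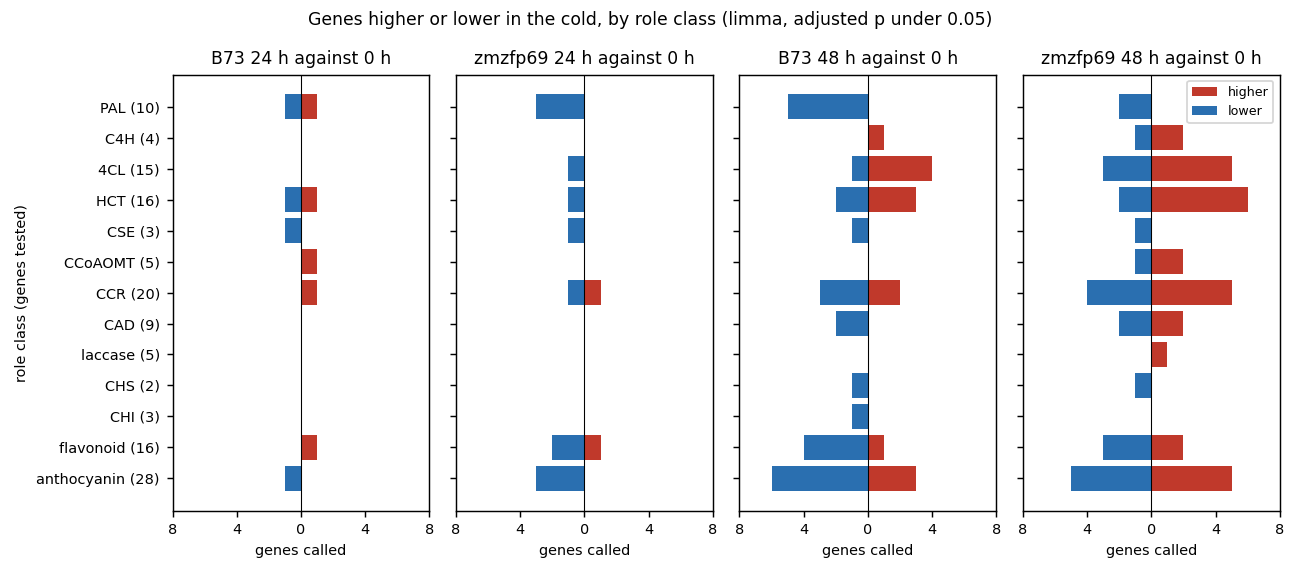
Number of genes called higher (red, to the right) or lower (blue, to the left) than at 0 h in each role class shown, for 24 and 48 h at 4 °C in B73 and in zmzfp69, with the number of genes tested per class in brackets. The 10 PAL genes have 5 lower and 0 higher in B73 at 48 h, while the 16 HCT genes have 6 higher and 2 lower in zmzfp69 at 48 h. Of all genes at 48 h, 12.7% were higher and 10.5% lower in B73, and 18.5% and 18% in zmzfp69.

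A C4H gene had the highest mean level of the set. Zm00001d009858 (chromosome 8, 85446294 to 85449522) is described as trans-cinnamate 4-monooxygenase, the enzyme that hydroxylates cinnamate. It measured 102, 57.4 and 55.8 FPKM in B73 at 0 h, 168, 239 and 224 at 24 h, and 700, 450 and 183 at 48 h. In zmzfp69 it measured 36, 80.3 and 32.1 at 0 h, 190, 75.8 and 197 at 24 h, and 1053, 804 and 1165 at 48 h. All 48 h libraries lay above all 0 h libraries of their genotype, and the 3 zmzfp69 libraries at 48 h lay above each of the other 15 libraries. The log2 fold change at 48 h was 2.47 in B73 (SE 0.51, adjusted p = 0.00355) and 4.43 in zmzfp69 (SE 0.51, adjusted p = 3.28e-05), and both calls held in each of the 13 other settings tried, which were 7 other analyses and the 6 compared libraries left out in turn. The difference between the genotypes in this rise was 1.96 (SE 0.72, unadjusted p = 0.0158, adjusted p = 0.552), which did not pass. A further C4H gene, Zm00001d037849, measured 1.94, 4.68 and 0.605 FPKM at 0 h and 33.9, 7.86 and 10.9 at 48 h in zmzfp69, a rise of 2.37 (SE 0.60, adjusted p = 0.00696) with no overlap between the times. The third, Zm00001d012510, was uneven at 0 h in zmzfp69, with 33.1, 209 and 5.34 FPKM, and passed only in zmzfp69 at 48 h against 24 h (log2 fold change 4.64, SE 1.06, adjusted p = 0.00685). The 1 member of the class that fell, Zm00001d027499, is described as a peroxisomal trans-cinnamate:CoA ligase, which in petunia serves benzoate synthesis rather than lignin (-0.92 in zmzfp69 at 48 h, adjusted p = 0.0289).

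PAL is the step before C4H. Of the 10 PAL genes, 5 were lower and 0 higher in B73 at 48 h, and 2 were lower and 0 higher in zmzfp69. The lower genes were 50% of the class in B73, against 10.5% of all genes, and 20% in zmzfp69, against 18%. Of all genes, 12.7% were higher in B73 and 18.5% in zmzfp69. Phenylalanine ammonia lyase5 (Zm00001d051163; chromosome 4, 146793740 to 146798809) measured 24, 17.9 and 10.5 FPKM in B73 at 0 h and 1.05, 1.23 and 0.564 at 48 h. In zmzfp69 it measured 16, 32.3 and 12.8 at 0 h, 2.12, 1.56 and 0.785 at 24 h, and 11.3, 1.8 and 0.683 at 48 h. Every cold library lay below every 0 h library of the same genotype. The log2 fold change was -3.19 in B73 at 48 h (SE 0.62, adjusted p = 0.00235) and -2.36 in zmzfp69 (SE 0.62, adjusted p = 0.00823), and both held in the 13 other settings. Zm00001d003015 fell in B73 from 11.7, 10.1 and 8.86 FPKM to 1.62, 1.52 and 0.241 at 48 h (-2.47, SE 0.57, adjusted p = 0.00699), and that call held as well. At 24 h this gene was called lower in both genotypes. The falls of phenylalanine ammonia lyase homolog1 and phenylalanine ammonia lyase2 in B73 (adjusted p = 0.0335 and 0.0475) were less settled, ending without any of 5 and any of 6 of the compared libraries, with adjusted p up to 0.111 and 0.121. How the counting treated reads shared by similar PAL genes was not tested.

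The 2 PAL genes with the highest mean levels were not called lower at 48 h, and the makeup of the PAL pool changed. Phenylalanine ammonia lyase7 (Zm00001d017279) measured 44, 33.7 and 34.9 FPKM in B73 at 0 h, 155, 284 and 235 at 24 h, and 27.4, 34.8 and 11.9 at 48 h. All 24 h libraries of B73 lay above both other times, although the rise at 24 h did not pass (log2 fold change 2.52, SE 0.82, adjusted p = 0.066) and the drop from 24 to 48 h did (-3.22, SE 0.82, adjusted p = 0.0428), a call that ended in 5 of the 7 other analyses and without any of the 6 compared libraries, with adjusted p up to 0.139. Zm00001d017276, in the same region of chromosome 5, went from 7.2, 2.34 and 2.58 FPKM to 20.7, 92.9 and 86.6 at 24 h in B73 (3.61, SE 0.91, adjusted p = 0.0204); this held in the 7 other analyses and ended without 0 h replicate 2 or 3 or without 24 h replicate 2 or 3, with adjusted p up to 0.0954. Summed over the 10 genes, PAL was 208 ± 42.3 FPKM (SD, n = 3) in B73 at 0 h, 472 ± 199 at 24 h and 161 ± 122 at 48 h, and 183 ± 65.1, 128 ± 87.7 and 245 ± 18.8 in zmzfp69. On library-total scaling the ratio of the 48 h to the 0 h mean in zmzfp69 turned from 1.34 to 0.742. Zm00001d017275 made up 27.6 to 36.7% of that sum in B73 at 0 h, 18.7 to 20.9% at 24 h and 39.5 to 82.9% at 48 h. In zmzfp69 its share was 16.8 to 32.4% at 0 h, 41.8 to 61.1% at 24 h and 45.7 to 83.5% at 48 h. The share of phenylalanine ammonia lyase5 at 48 h, 0.357 to 1% in B73 and 0.26 to 4.57% in zmzfp69, lay below its 0 h range of 5.41 to 10.3% and 5.85 to 14.8%. These shares were compared by their ranges only.

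**Figure D2:**
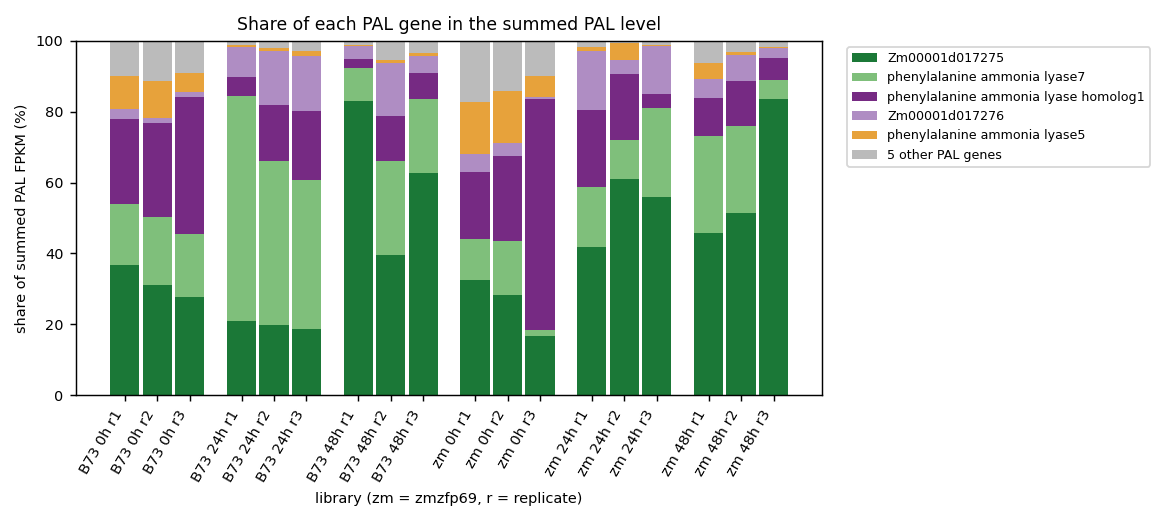
Share of each PAL gene in the summed PAL level (FPKM, percent) in each of the 18 libraries, grouped by genotype and time. The dark green part, Zm00001d017275, is 39.5 to 82.9% in B73 and 45.7 to 83.5% in zmzfp69 at 48 h, and the light green part, phenylalanine ammonia lyase7, is 42.1 to 63.5% in B73 at 24 h.

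In the 4CL class, 4 genes were higher and 1 lower in B73 at 48 h, and 5 were higher and 3 lower in zmzfp69. In B73 these were 26.7% and 6.67% of the class, against 12.7% and 10.5% of all genes. In zmzfp69 they were 33.3% and 20%, against 18.5% and 18% of all genes. The class holds 10 genes annotated only as 4CL-like, whose substrates are less certain than those of 4CL proper. Zm00001d027519, a 4CL-like gene, measured 8.44, 7.2 and 3.48 FPKM in B73 at 0 h and 190, 36.3 and 31.2 at 48 h, and 5.77, 7.67 and 5.85 against 60.5, 63.8 and 175 in zmzfp69. No 48 h library of either genotype overlapped the 0 h libraries, and replicate 1 was far above the others in B73. Its log2 fold change was 3.12 in B73 (SE 0.59, adjusted p = 0.00195) and 3.59 in zmzfp69 (SE 0.59, adjusted p = 0.000361). Another 4CL-like gene, Zm00001d030132, rose in both genotypes by 2.60 and 3.22 (adjusted p = 0.00238 and 0.000264), and these 4 calls held in the 13 other settings. Coumarate ligase1 (Zm00001d015459) rose from 14.6, 7.62 and 5.01 FPKM to 86, 17.3 and 57.2 in B73 (2.28, SE 0.61, adjusted p = 0.0143) and from 7.84, 9.91 and 15.8 to 38.4, 48.1 and 89.6 in zmzfp69 (2.25, SE 0.61, adjusted p = 0.00965). The B73 call ended when the compared libraries were fitted alone (adjusted p = 0.0615), without 0 h replicate 3 (0.0545) and without 48 h replicate 1 (0.0764), and the zmzfp69 call with library-total scaling (0.0507). Zm00001d051529, annotated as 4CL itself, rose in zmzfp69 from 3.83, 2.43 and 5.02 to 30.2, 22.8 and 31.8 FPKM (2.64, SE 0.72, adjusted p = 0.0104), while its log2 fold change in B73 was -0.55 (adjusted p = 0.616) and the genotype difference did not pass (3.20, SE 1.02, unadjusted p = 0.00664, adjusted p = 0.475). This gene overlaps another on the opposite strand, and no source used here says whether counting used strand.

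Among the HCT genes, acyltransferases that join hydroxycinnamoyl groups to shikimate and other acceptors, 3 were higher and 2 lower in B73 at 48 h and 6 were higher and 2 lower in zmzfp69. The B73 counts were 18.8% and 12.5% of the class, against 12.7% and 10.5% of all genes. The zmzfp69 counts were 37.5% and 12.5%, against 18.5% and 18% of all genes. Zm00001d050455 (chromosome 4, 89654139 to 89655850) measured 20, 23 and 0.251 FPKM in B73 at 0 h and 310, 85.4 and 29.2 at 48 h, and 7.81, 48.8 and 2.78 against 347, 166 and 360 in zmzfp69. It was higher at 48 h in each genotype with no overlap, and the rise was 3.44 in B73 (SE 1.13, adjusted p = 0.0388) and 4.54 in zmzfp69 (SE 1.13, adjusted p = 0.00616). The zmzfp69 call held in the 13 other settings, while the B73 call ended in 5 of the 7 other analyses and without 0 h replicate 3 (adjusted p = 0.172), 48 h replicate 1 (0.174) or 48 h replicate 2 (0.0662). Hydroxycinnamoyltransferase5 rose in zmzfp69 from 6.22, 6.52 and 3.84 to 34.4, 33.5 and 168 FPKM (3.21, SE 0.63, adjusted p = 0.0014). Hydroxycinnamoyltransferase6 was already higher at 24 h in B73, with 74.6, 92.7 and 53.2 FPKM against 14.4, 12.3 and 7.1 (2.62, SE 0.49, adjusted p = 0.00415), and was higher in zmzfp69 at 48 h (2.15, SE 0.49, adjusted p = 0.00363). Those 3 calls held in the 13 other settings. Hydroxycinnamoyltransferase5 was also called higher in B73 at 48 h. Zm00001d018367, similar to a putrescine hydroxycinnamoyltransferase of rice and so outside the lignin route by that annotation, rose in zmzfp69 from 0.116, 0.137 and 0.262 to 4.8, 2.09 and 5.14 FPKM (2.03, SE 0.31, adjusted p = 0.000216), a size that log2(FPKM + 1) understates at these levels. Hydroxycinnamoyltransferase12 (Zm00001d031893) fell in all 4 comparisons with 0 h, from 3.82, 4.87 and 6.08 FPKM to 0.554, 0.998 and 0.471 in B73 at 48 h (-1.82, SE 0.27, adjusted p = 0.000442) and from 4.24, 10.3 and 5.95 to 1.3, 0.694 and 0.617 in zmzfp69 (-2.01, SE 0.27, adjusted p = 9.22e-05). Its 48 h calls held in the 13 other settings, and those at 24 h ended without any of 3 libraries each, with adjusted p up to 0.0651 in B73 and 0.124 in zmzfp69. Zm00001d020530 fell in zmzfp69, from 26.6, 26.9 and 56.2 to 4.32, 4.43 and 4.82 FPKM (-2.68, SE 0.55, adjusted p = 0.00182), and its B73 libraries were 9.74, 14.9 and 14.5 at 0 h and 13.6, 18.8 and 22.3 at 48 h (0.45, adjusted p = 0.59). The test of the genotype difference in that change gave -3.13 (SE 0.78, unadjusted p = 0.00106, adjusted p = 0.335).

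CSE, which frees caffeate from caffeoyl shikimate, was measured through 3 genes, with 1 lower in each genotype at 48 h and 0 higher. With 3 genes, 1 call is 33.3% of the class, against 10.5% of all genes lower in B73 and 18% in zmzfp69. Zm00001d040681 fell in B73 from 9.58, 4.89 and 7.83 FPKM to 2.43, 0.217 and 0.609 (-2.12, SE 0.40, adjusted p = 0.00209). Zm00001d009907 fell in zmzfp69 from 27.8, 120 and 23.2 FPKM to 4.18, 7.54 and 8.08 (-2.57, SE 0.62, adjusted p = 0.00478). In both cases each 48 h library lay below each 0 h library, and both calls held in the 13 other settings. Zm00001d040681 was also called lower at 24 h in both genotypes, and was not called in zmzfp69 at 48 h.

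Of the 5 CCoAOMT genes, 2 were higher and 1 lower in zmzfp69 at 48 h and 0 were called in B73. The zmzfp69 counts were 40% and 20% of the class, against 18.5% and 18% of all genes. Over all genes in B73 the shares were 12.7% and 10.5%. Caffeoyl-CoA O-methyltransferase1 (Zm00001d036293; chromosome 6, 82193275 to 82194916), which methylates caffeoyl-CoA on the way to G and S lignin units, measured 17.6, 28.4 and 14.7 FPKM in zmzfp69 at 0 h, 35.1, 9.29 and 18.1 at 24 h, and 253, 153 and 279 at 48 h. In B73 it measured 47.8, 28.1 and 5.83 at 0 h and 151, 114 and 27.5 at 48 h. The zmzfp69 libraries at 48 h stood above all others, and the rise was 3.44 (SE 0.73, adjusted p = 0.00212), against 1.89 in B73 (SE 0.73, adjusted p = 0.0708), where replicate 3 at 48 h lay within the 0 h range. Caffeoyl CoA O-methyltransferase2 rose in B73 at 24 h from 3.14, 1.86 and 0.358 to 12.7, 20.5 and 18.6 FPKM (2.83, SE 0.65, adjusted p = 0.0132) and in zmzfp69 at 48 h from 1.26, 1.6 and 2.31 to 19.6, 14.6 and 14.5 (2.67, SE 0.65, adjusted p = 0.00532). Its coordinates overlap a gene on the opposite strand. Both zmzfp69 calls held in the 13 other settings, and the 24 h call in B73 ended without 0 h replicate 3 (adjusted p = 0.0547) or 24 h replicate 2 (0.0577).

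CCR, the reductase that commits CoA esters to monolignols, had 2 genes higher and 3 lower in B73 at 48 h and 5 higher and 4 lower in zmzfp69. These counts were near the shares of all genes, at 10% and 15% of the class in B73, against 12.7% and 10.5%. In zmzfp69 they were 25% and 20%, against 18.5% and 18%. Zm00001d051938 (chromosome 4, 174854965 to 174856718) was almost silent at 0 h, with 0.427, 0.165 and 0.118 FPKM in B73 and 0.311, 0.0734 and 0.343 in zmzfp69. It measured 2.66, 9.9 and 4.55 in B73 at 24 h and 16.1, 26.3 and 29.1 at 48 h, and 8.57, 0 and 5.62 followed by 27.3, 42 and 36.3 in zmzfp69. The 0 at 24 h was replicate 2 of zmzfp69, and each 48 h library lay above each earlier library of its genotype. The rise at 48 h was 4.29 in B73 (SE 0.61, adjusted p = 0.000324) and 4.85 in zmzfp69 (SE 0.61, adjusted p = 5.85e-05), and both held in the 13 other settings. Cinnamoyl CoA reductase1 (Zm00001d032152) was the most abundant CCR gene, with 83.7, 50.7 and 78.4 FPKM at 0 h and 566, 90.6 and 391 at 48 h in B73. In zmzfp69 it measured 62.3, 68.7 and 78.1 at 0 h and 184, 371 and 461 at 48 h. The groups did not overlap, but the call in zmzfp69 (2.17, SE 0.82, adjusted p = 0.0485) ended in 5 of the 7 other analyses and without 5 of the 6 compared libraries, with adjusted p up to 0.231, and in B73 the change did not pass (1.96, adjusted p = 0.0944). Its coordinates overlap those of a further CCR gene, Zm00001d032153, on the opposite strand. Zm00001d015513 rose in zmzfp69 between 24 and 48 h, with 34.2, 31.2 and 33.7 FPKM at 0 h, 13, 9.28 and 25.3 at 24 h, and 127, 88.2 and 103 at 48 h (48 h against 24 h: 2.77, SE 0.37, adjusted p = 0.000252, held in the 13 other settings). Against 0 h, this gene was called higher at 48 h in both genotypes.

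CAD reduces the aldehydes to monolignols. Of 9 CAD genes, all described as probable or putative CAD, 0 were higher and 2 lower in B73 at 48 h, and 2 were higher and 2 lower in zmzfp69. As shares of the class, 2 genes are 22.2%. Of all genes, 12.7% were higher and 10.5% lower in B73, and 18.5% and 18% in zmzfp69. Zm00001d020401, similar to CAD8B of rice, fell in B73 from 10.7, 9.15 and 3.23 FPKM to 0.192, 0 and 0.823 (-2.62, SE 0.51, adjusted p = 0.00251), and this held in the 13 other settings. The same gene was called lower in zmzfp69 at 48 h as well. Brown midrib1 itself, the CAD known for lignin in maize stems, measured 25.6, 22.9 and 42.5 FPKM at 0 h and 88.9, 56.1 and 69.1 at 48 h in zmzfp69 (1.23, SE 0.42, adjusted p = 0.0302). This call ended with library-total scaling (adjusted p = 0.393), with quantile normalization (0.448) and without 4 of the 6 compared libraries. The most abundant CAD gene, Zm00001d004443, measured 16.4, 21.8 and 13.1 FPKM in B73 at 0 h and 52.2, 325 and 272 at 24 h, with no overlap and no call (3.24, SE 1.05, adjusted p = 0.0637). In zmzfp69 at 24 h it measured 107, 2.09 and 136, the 2.09 being the replicate that stood apart. It rose in zmzfp69 from 16.9, 22.5 and 12.1 FPKM at 0 h to 191, 259 and 100 at 48 h (3.28, SE 1.05, adjusted p = 0.0234), a call that ended with quantile normalization (adjusted p = 0.0671) and without any of 4 libraries (up to 0.0738). Of the 5 laccases, putative laccase-9 (Zm00001d018064) passed in zmzfp69 at 48 h (1.78, SE 0.60, adjusted p = 0.0297), a call that ended in 3 of the 7 other analyses and without 3 of the 6 libraries. The most abundant laccase by mean level, Zm00001d042848, was at 12.4 to 75.3 FPKM over the 18 libraries and was not called. Laccase Zm00001d023617 was 430 FPKM in replicate 2 of zmzfp69 at 0 h and at most 7.16 in each other library, so the summed laccase level of that group, 184 ± 235 FPKM (SD, n = 3), rests on 1 library.

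**Figure D3:**
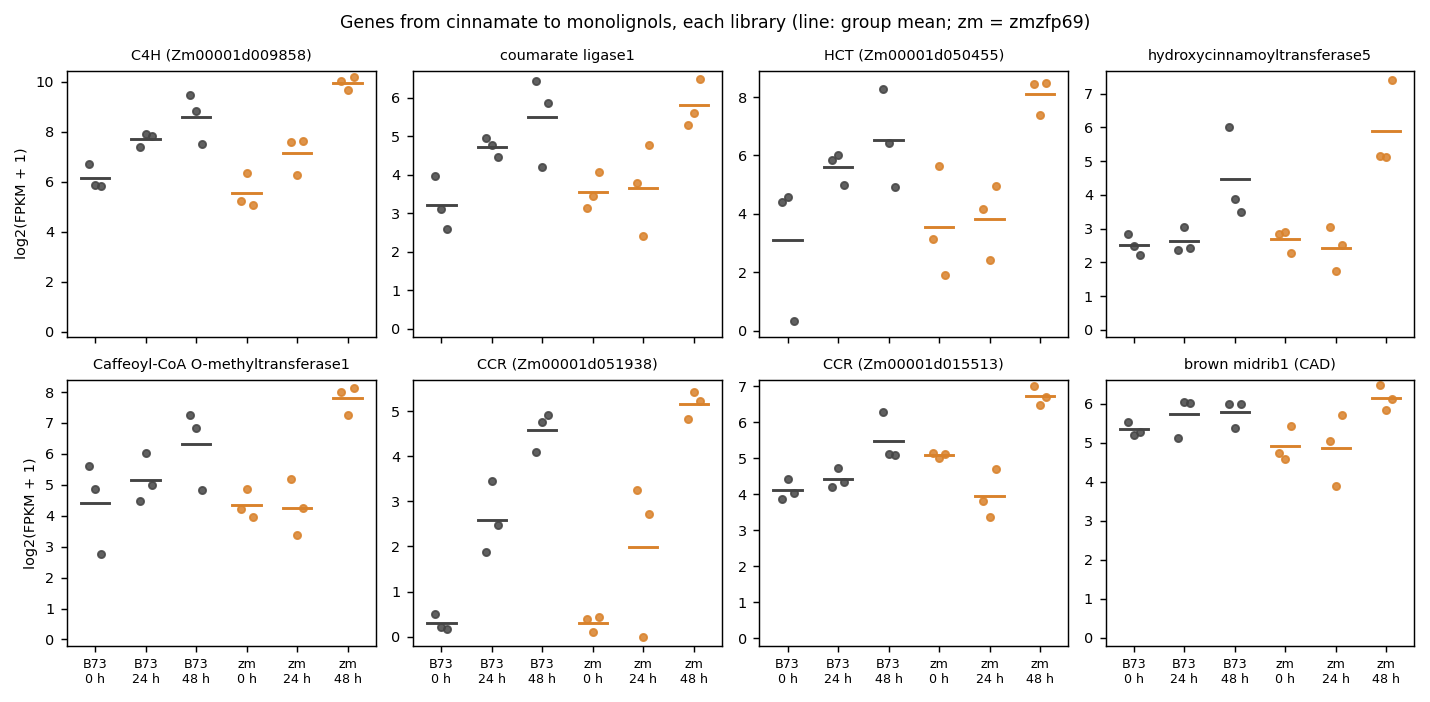
Level of 8 genes between cinnamate and the monolignols in each library, as log2(FPKM + 1) against genotype and time at 4 °C; dots are libraries and lines group means of 3. In zmzfp69 all 3 libraries at 48 h stand above all 0 h libraries in each of the 8 panels, and CCR Zm00001d051938 starts near 0 in both genotypes.

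Summed over a class, C4H went from 80.1 ± 26.4 FPKM (SD, n = 3) at 0 h to 488 ± 284 at 48 h in B73, and from 136 ± 140 to 1138 ± 275 in zmzfp69. HCT went from 117 ± 26.5 to 276 ± 205 in B73 and from 170 ± 57.8 to 562 ± 169 in zmzfp69. CCoAOMT went from 38.1 ± 21.2 to 116 ± 69.2 and from 32.2 ± 7.02 to 258 ± 62.7. The CSE sum went the other way, from 24.3 ± 5.74 to 14.7 ± 3.69 and from 64.5 ± 52.6 to 10.3 ± 2.10, and the CAD sum was 151 ± 10.5 and 176 ± 31.4 in B73 and 137 ± 13.3 and 346 ± 84.7 in zmzfp69. These sums were not tested. In B73 at 48 h replicate 1 was higher than the others in C4H (770 FPKM against 492 and 202), HCT (508 against 201 and 119) and CCoAOMT (176 against 133 and 40.4). On library-total scaling the ratio of the 48 h to the 0 h mean stayed above 1 for C4H, HCT and CCoAOMT in both genotypes, at 3.74 and 4.71 for C4H, 1.40 and 1.85 for HCT and 1.83 and 4.48 for CCoAOMT in B73 and zmzfp69. It was 0.392 and 0.0886 for CSE, and for CAD in B73 it turned from 1.16 to 0.768.

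The flavonoid and anthocyanin branch had more lower than higher calls in B73. Of its 49 genes, 4 were higher and 12 lower in B73 at 48 h, and 7 were higher and 9 lower in zmzfp69. The B73 counts were 8.16% and 24.5% of the branch, against 12.7% and 10.5% of all genes. In zmzfp69 they were 14.3% and 18.4%, near the 18.5% and 18% of all genes. On library-total scaling the counts were 3 and 18 in B73 and 3 and 13 in zmzfp69. Of all genes, 8.24% were then higher and 20.9% lower in B73, and 10.1% and 35.3% in zmzfp69. Colorless2 (Zm00001d052673), the chalcone synthase that opens the branch, measured 98.7, 89.9 and 180 FPKM in B73 at 0 h, 18.3, 95.3 and 195 at 24 h, and 32.6, 23.6 and 18.2 at 48 h. In zmzfp69 it measured 15.4, 34.7 and 56.7 at 0 h, 13.2, 4.81 and 7.09 at 24 h, and 52.4, 51.7 and 23.2 at 48 h. The B73 libraries at 48 h lay below all B73 libraries at 0 h (-2.23, SE 0.69, adjusted p = 0.0285), whereas the zmzfp69 libraries at 48 h overlapped those at 0 h (0.34, SE 0.69, adjusted p = 0.728) and lay above those at 24 h (2.22, SE 0.69, adjusted p = 0.0303). Chalcone flavanone isomerase1, the next step, fell in B73 from 64.3, 30.7 and 44.8 FPKM to 5.75, 7.91 and 2.97 (-2.88, SE 0.91, adjusted p = 0.0319). Anthocyaninless1, the dihydroflavonol reductase of pigment synthesis, went from 9.85, 3.29 and 7.13 FPKM to 0.115, 0 and 0.189 in B73 (-2.72, SE 0.91, adjusted p = 0.0417). It was 0.0954, 0.412 and 0.383 in zmzfp69 at 0 h and 0 in its 3 libraries at 24 h. Chalcone flavanone isomerase3, another isomerase gene, was at 7.68 to 10.3 FPKM in B73 at 0 h and 16.1 to 23 at 48 h, with no call. Each of the 3 B73 falls ended without at least 5 of the 6 compared libraries, with adjusted p up to 0.0925 for colorless2 (and 0.11 for its rise from 24 to 48 h in zmzfp69, which ended without any of 4 libraries and on library-total scaling), 0.104 for chalcone flavanone isomerase1 and 0.131 for anthocyaninless1. Bronze1, the glucosyltransferase of the last pigment step, and colored1, a bHLH regulator of these genes, also fell in B73 (-1.58 and -1.84, adjusted p = 0.0143 and 0.0171). The bronze1 call ended without 0 h replicate 1 (adjusted p = 0.0776), the colored1 call without 0 h replicate 1 (0.0833) or 48 h replicate 1 (0.0554), and both in the fit of the compared libraries alone (0.0506 and 0.0822).

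The pigment loci were also compared between the genotypes. Anthocyaninless2, which forms anthocyanidins, measured 0, 0.592 and 0 FPKM in zmzfp69 at 0 h against 10.7, 4.34 and 1.66 in B73 (-2.24, SE 0.67, unadjusted p = 0.00428, adjusted p = 0.493). At 48 h it measured 2.22, 2.31 and 9.44 in zmzfp69 and 2.23, 0.315 and 0.46 in B73. The groups did not overlap at 0 h and overlapped at 48 h. The change from 0 to 48 h was 2.04 in zmzfp69 (SE 0.67, adjusted p = 0.0266), which ended with library-total scaling (adjusted p = 0.0556) and without 0 h replicate 1 or 3 or 48 h replicate 3 (up to 0.121). In B73 it was -1.58 (SE 0.67, adjusted p = 0.0984), and the test of the difference gave 3.62 (SE 0.95, unadjusted p = 0.00155, adjusted p = 0.357). Colorless2 and anthocyaninless1 had differences of the same kind at 48 h, 2.57 (SE 0.97, unadjusted p = 0.0179, adjusted p = 0.562) and 3.50 (SE 1.29, unadjusted p = 0.0154, adjusted p = 0.552), and none of the 3 passed. Flavone synthase typeI2, similar to a flavanone 3-dioxygenase of rice, had the opposite order at 0 h, with 2.38, 2.93 and 5.73 FPKM in B73 and 61.4, 60 and 10.1 in zmzfp69 (2.96, SE 1.01, unadjusted p = 0.01, adjusted p = 0.664). Herbicide safener binding protein1, described as a flavonoid O-methyltransferase-like protein and the most abundant of the flavonoid class, ranged from 0.115 to 340 FPKM over the 18 libraries and was not called.

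Flavonoid 3'-monooxygenase genes add the second hydroxyl group to the flavonoid B ring. Zm00001d032035 measured 19.2, 19.9 and 22 FPKM in B73 at 0 h and 10.6, 2.27 and 5.19 at 48 h, and 24.4, 22.8 and 31.9 against 6.69, 5.63 and 6.04 at 24 h and 7.84, 12.3 and 9.27 at 48 h in zmzfp69. Each cold library was lower than each 0 h library of its genotype. The fall was -1.79 in B73 at 48 h (SE 0.39, adjusted p = 0.00491) and -1.93 in zmzfp69 at 24 h (SE 0.39, adjusted p = 0.0076), both held in the 13 other settings, and -1.35 in zmzfp69 at 48 h (adjusted p = 0.0143), which ended without 0 h replicate 3 (adjusted p = 0.0539) or 48 h replicate 1 (0.0529). The related gene Zm00001d050955 also fell in B73 at 48 h (-1.40, SE 0.32, adjusted p = 0.00621). Zm00001d047424, similar to a flavonoid 3',5'-hydroxylase of petunia, fell in B73 from 9.06, 6.61 and 4.92 FPKM to 0.168, 1.71 and 0.0832 at 48 h (-2.35, SE 0.55, adjusted p = 0.00746, held in the 13 other settings). Its zmzfp69 libraries went from 3.66, 8.76 and 14.5 FPKM to 2.17, 1.25 and 0.213 at 24 h (-2.12, SE 0.55, adjusted p = 0.0267), a call that ended without any of 3 libraries, with adjusted p up to 0.11. At 48 h the gene was called lower in zmzfp69 too. Zm00001d047504, similar to an anthocyanidin 5,3-O-glucosyltransferase of rose, measured 15.5, 13.7 and 9.9 FPKM in B73 at 0 h, 1.49, 1.44 and 1.97 at 24 h, and 0.849, 0.806 and 1.31 at 48 h. In zmzfp69 it went from 9.71, 7 and 8.7 at 0 h to 0.678, 0.221 and 0 at 48 h. It fell at both times in both genotypes, by -2.81 in B73 (SE 0.41, adjusted p = 0.00037) and -2.89 in zmzfp69 (SE 0.41, adjusted p = 0.000128) at 48 h. The calls in B73 and at 48 h in zmzfp69 held in the 13 other settings, and that at 24 h in zmzfp69 (adjusted p = 0.0405) ended without any of 5 libraries, with adjusted p up to 0.16.

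A different glucosyltransferase gene rose. Zm00001d044106 (chromosome 3, 219392311 to 219393785), similar to an anthocyanin 3'-O-beta-glucosyltransferase of gentian, measured 14.5, 19.9 and 26.6 FPKM in B73 at 0 h, 15.8, 49.9 and 23.4 at 24 h, and 750, 186 and 122 at 48 h. In zmzfp69 it measured 16.9, 44.3 and 11.1, then 56.7, 16.5 and 61.1, then 412, 244 and 481. All 6 libraries at 48 h lay above the other 12. The rise from 0 h was 3.64 in B73 (SE 0.68, adjusted p = 0.00193) and 4.09 in zmzfp69 (SE 0.68, adjusted p = 0.000411). The adjacent pair Zm00001d006449 and Zm00001d006450, both similar to anthocyanidin 5,3-O-glucosyltransferase, rose in zmzfp69 at 48 h, from 0, 0.15 and 1.44 to 9.67, 7.49 and 11 FPKM (2.87, SE 0.63, adjusted p = 0.00291) and from 0 in the 3 libraries to 2.92, 4.62 and 3.44 FPKM (adjusted p = 0.00168). These 4 calls held in the 13 other settings. The sum over the 28 anthocyanin genes was 187 ± 6.97 FPKM (SD, n = 3) at 0 h in B73 and 911, 289 and 233 FPKM in the 3 libraries at 48 h, of which Zm00001d044106 gave the 750, 186 and 122. Dihydroflavonoid reductase1 (Zm00001d020970), whose closest described protein is a tetraketide alpha-pyrone reductase of Arabidopsis, was the only gene of the 137 called higher at both times in both genotypes, from 1.2, 0.945 and 2.14 FPKM to 8.29, 9.39 and 11.7 at 24 h in B73 (2.17, SE 0.40, adjusted p = 0.00338, held in the 13 other settings) and from 2.55, 1.3 and 2.32 to 10.1, 5.72 and 9.61 in zmzfp69 (1.62, adjusted p = 0.0194), where the call ended without any of 3 libraries (adjusted p up to 0.0843). Its 2 calls at 48 h ended in 3 of the 7 other analyses each, library-total scaling among them (adjusted p = 0.062 and 0.294).

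**Figure D4:**
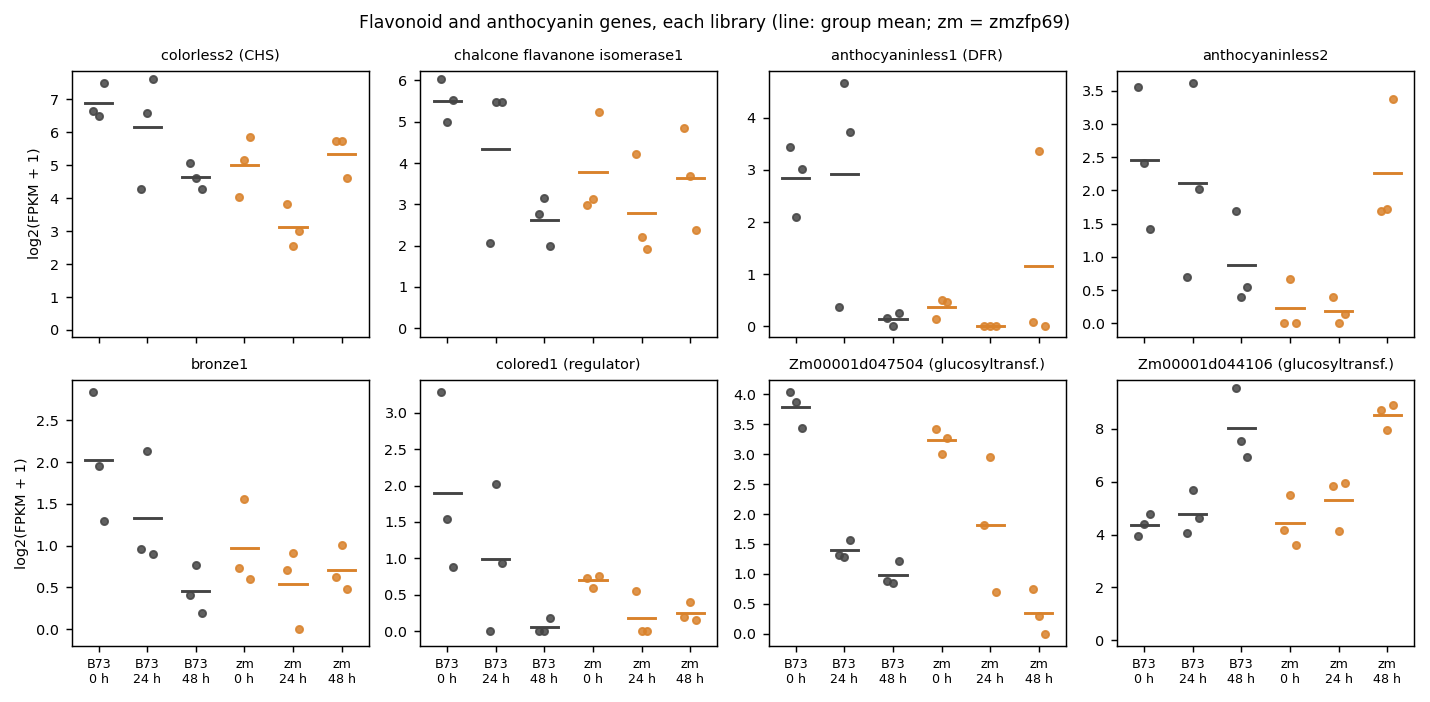
Level of 8 flavonoid and anthocyanin genes in each library, as log2(FPKM + 1) against genotype and time at 4 °C; dots are libraries and lines group means of 3. In B73 the pigment genes colorless2, chalcone flavanone isomerase1 and anthocyaninless1 have all 48 h libraries below all 0 h libraries, and Zm00001d044106 has all 48 h libraries above the rest.

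Epidermal and root markers were read beside these changes, because leaf libraries mix cell types and fewer cells of a type cannot be told apart from less RNA per cell. Of 26 tested epidermal genes (40 matched, 6 at 0 in every library), 2 were higher and 4 lower at 48 h in each genotype. Of all genes, 12.7% were higher and 10.5% lower in B73, and 18.5% and 18% in zmzfp69. On library-total scaling the epidermal counts were 1 and 7 in B73, against 8.24% and 20.9% of all genes. They were 1 and 6 in zmzfp69, against 10.1% and 35.3%. The summed epidermal level was 300 to 749 FPKM in B73 at 0 h and 136 to 244 at 48 h, and 249 to 744 and 253 to 327 in zmzfp69. Of 4 tested root genes (16 matched, 8 at 0 in every library), 2 were higher at 48 h in each genotype, a nicotianamine synthase and a Casparian strip membrane protein, and their sum was 235 to 377 FPKM in B73 at 0 h and 750 to 1269 at 48 h, and 337 to 668 and 528 to 1028 in zmzfp69. On library-total scaling 2 root genes were higher in B73 and 1 in zmzfp69. The part of cell type differences in the changes above was not tested.

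Between 24 and 48 h fewer genes were called in B73 than in zmzfp69, in the set as over all genes. The difference between the genotypes over this interval was not tested. In B73, 1 gene was higher and 4 were lower, 3.65% of the set against 3.48% of all genes (2.62% higher and 0.86% lower). In zmzfp69, 31 were higher and 7 lower, 27.7% of the set against 22.5% of all genes (13.5% higher and 8.95% lower). The zmzfp69 count was 17 higher and 1 lower without 24 h replicate 2, which stood apart, 16 higher and 3 lower without 48 h replicate 1, and 17 higher and 16 lower on library-total scaling, against 6.71% and 20.1% of all genes. Over all genes the zmzfp69 counts went from 3127 higher and 2071 lower to 2051 and 1008 without 24 h replicate 2. They were 1983 and 970 without 48 h replicate 1. The B73 count ended at 0 without 24 h replicate 3 or 48 h replicate 1, and at 1 without 24 h replicate 2 or 48 h replicate 2. The B73 counts over all genes fell in each of these cases as well. The calls that held in zmzfp69 in the 13 other settings included the C4H gene Zm00001d009858 (2.80, adjusted p = 0.00198), Caffeoyl-CoA O-methyltransferase1 (3.53, adjusted p = 0.00388), hydroxycinnamoyltransferase5 (3.45, adjusted p = 0.00208) and isoflavone reductase-like1 (2.91, adjusted p = 0.00216), a reductase of the family that holds isoflavone reductases. Isoflavone reductase-like1 measured 0.908, 0 and 2.75 FPKM at 24 h and 16, 8.38 and 18.2 at 48 h.

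**Figure D5:**
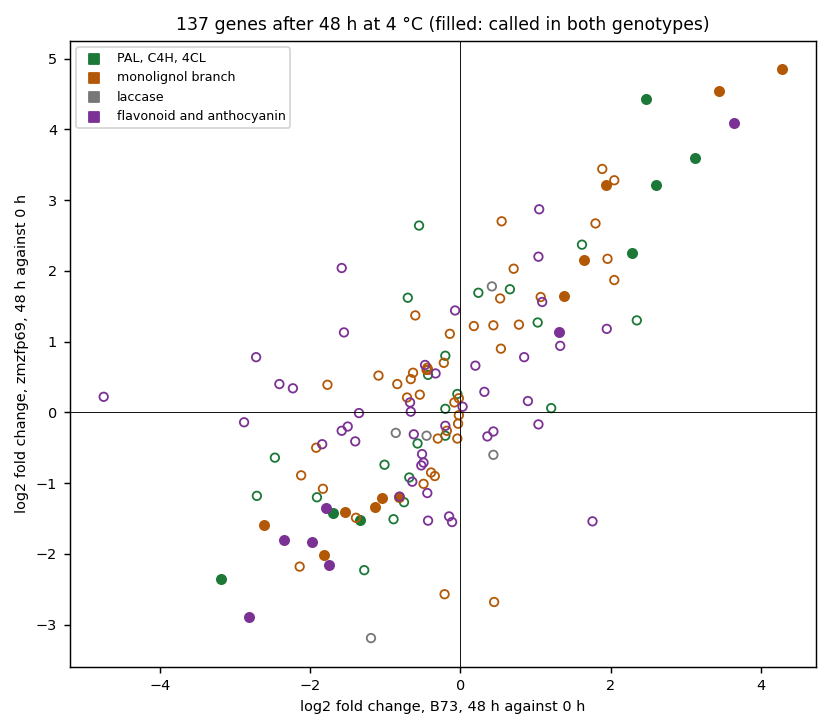
Log2 fold change of each of the 137 genes from 0 to 48 h in B73 (x axis) and in zmzfp69 (y axis), coloured by branch; filled points passed in both genotypes. The filled points lie in the upper right (11 genes) and lower left (14 genes), and 0 lie in the other corners.

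Compared directly, zmzfp69 and B73 differed in the level of 1 gene. At 0 h 0 of the 137 genes were called with limma, against 0.212% of all genes, and 0 with limma-voom, while 14 of the 137 had an unadjusted p under 0.05, against 5.25% of all genes. At 24 h 1 was lower, against 0.411% of all genes called and 0.199% lower, while 27 had an unadjusted p under 0.05, 21 of them lower, against 10.6% of all genes. At 48 h 0 were called with limma, against 0.333% of all genes, and 0 with limma-voom, while 30 had an unadjusted p under 0.05, 23 of them higher, against 14% of all genes. The gene is Zm00001d044104 (chromosome 3, 219356840 to 219363288), similar to the CCR-like protein SNL6 of rice. At 24 h it measured 9.41, 18.3 and 14.2 FPKM in B73 and 4.15, 0.343 and 1.81 in zmzfp69, with no overlap (-2.43, SE 0.38, adjusted p = 0.0105). Without replicate 2 of zmzfp69, the library that stood apart and the lowest of the 6, the remaining values were 4.15 and 1.81, and the call was kept. It ended without B73 24 h replicate 2 (adjusted p = 0.0836) or replicate 3 (0.0611) and with the compared libraries fitted alone (0.308). At 48 h the order was the opposite, with 4.03, 2.75 and 3.04 FPKM in B73 and 9.74, 12.8 and 10.4 in zmzfp69 (1.49, SE 0.38, unadjusted p = 0.00139, adjusted p = 0.117). At 0 h the groups were 7.85, 4.18 and 4.79 and 3.97, 3.27 and 3.6 (-0.48, SE 0.38, adjusted p = 1). The count at 24 h was 6 lower without B73 24 h replicate 1, 1 higher and 2 lower without zmzfp69 24 h replicate 3, and the count at 48 h was 3 higher without B73 48 h replicate 2 and 1 and 2 higher without zmzfp69 48 h replicates 2 and 3.

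The response to cold did not pass as different between the genotypes for any of the 137 genes. The genotype by cold interaction called 0 of them at 24 h (0.00432% of all genes; 8 at an unadjusted p under 0.05, against 6.2% of all genes) and 0 at 48 h (0.00864% of all genes; 23 at an unadjusted p under 0.05, against 7.45%), and limma-voom called 0 at either time. Among the smallest p-values was that of the CCR gene Zm00001d006037, which measured 22.5, 62.2 and 12.4 FPKM in zmzfp69 at 24 h against 2.32, 4.46 and 3.66 at 0 h and 5.9, 4.37 and 4.56 in B73 at 24 h. It rose in zmzfp69 (2.62, SE 0.51, adjusted p = 0.00622; adjusted p = 0.0705 in the fit of the compared libraries alone), its highest value was the replicate that stood apart, and the interaction was 3.43 (SE 0.73, unadjusted p = 0.000254, adjusted p = 0.172).

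Upstream of PAL, genes of the shikimate pathway and phenylalanine supply were also measured. Of 33 tested, 3 were higher and 2 lower in B73 at 48 h, against 12.7% and 10.5% of all genes. In zmzfp69, 9 were higher and 2 lower, against 18.5% and 18% of all genes. On library-total scaling the counts were 3 and 6 in B73, against 8.24% and 20.9% of all genes. They were 4 and 4 in zmzfp69, against 10.1% and 35.3%. Zm00001d006900, similar to the first enzyme of the shikimate pathway, was 7.40 ± 0.94 FPKM at 0 h and 122 ± 128 at 48 h in B73 (SD, n = 3; 3.36, adjusted p = 0.0172), and 3.05 ± 1.33 and 162 ± 24.1 in zmzfp69 (5.38, adjusted p = 0.000536). Zm00001d018061, similar to shikimate kinase 1 of rice, rose from 21.4 ± 2.86 to 104 ± 52.9 (2.08, adjusted p = 0.00641) and from 31.8 ± 6.35 to 127 ± 44.8 (1.92, adjusted p = 0.00582). These 4 calls also passed on library-total scaling. Zm00001d014737, similar to arogenate dehydrogenase 2, which leads to tyrosine instead of phenylalanine, fell in both genotypes (-1.09 and -1.82, adjusted p = 0.0346 and 0.00117).

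Further lists stand beside the same shares of all genes, 12.7% higher and 10.5% lower in B73 at 48 h and 18.5% and 18% in zmzfp69. On library-total scaling those shares were 8.24% and 20.9%, and 10.1% and 35.3%. Of 5 tested ring hydroxylase genes (of 12 matched), 1 was higher at 48 h in each genotype, with 2 lower in B73 and 1 in zmzfp69. The higher gene is Zm00001d038555, similar to CYP98A1 of sorghum, the enzyme that hydroxylates coumaroyl esters, at 7.75 ± 4.35 and 20.2 ± 3.53 FPKM in B73 (1.42, adjusted p = 0.0278) and 8.48 ± 3.00 and 33.1 ± 14.9 in zmzfp69 (1.82, adjusted p = 0.00473). Neither call passed on library-total scaling (adjusted p = 0.199 and 0.117). Zm00001d032468, similar to CYP84A1 (ferulate 5-hydroxylase), fell in B73 from 4.23 ± 4.32 to 0.203 ± 0.352 FPKM (-1.77, adjusted p = 0.0231). The list also holds an agmatine coumaroyltransferase, the other gene that fell. Of 13 dirigent genes, which guide phenoxy radical coupling, 0 were higher and 3 lower in B73 at 48 h and 3 higher and 2 lower in zmzfp69 (0 and 3, and 1 and 5, on library-total scaling). Of 16 secondary wall cellulose synthase and COBRA-like genes, 2 were higher and 0 lower in B73 and 5 higher and 1 lower in zmzfp69 (2 and 0, and 3 and 1). Zm00001d012744, similar to cellulose synthase A subunit 4 of rice, a subunit known from secondary walls, rose from 0.205 ± 0.165 to 4.53 ± 2.64 FPKM in B73 (2.07, adjusted p = 0.0056) and from 0.819 ± 0.364 to 11.8 ± 2.67 in zmzfp69 (2.81, adjusted p = 0.000379). Of 2 genes matched as secondary wall regulators, 0 reached the level filter.

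Some of the 137 genes lie near each other. Within gaps of at most 100000 bases, 36 of them formed 15 runs, and 12 of the runs held a single role class; other genes can lie between the members of a run, and the share of all genes in such runs was not computed. The longest runs were 2 groups of 4 PAL genes, on chromosome 4 (phenylalanine ammonia lyase3, phenylalanine ammonia lyase5, Zm00001d051164 and Zm00001d051166) and chromosome 5 (phenylalanine ammonia lyase homolog1, Zm00001d017275, Zm00001d017276 and phenylalanine ammonia lyase7). Members of a run had different values. On chromosome 5, phenylalanine ammonia lyase homolog1 went from 61, 46.4 and 75.4 FPKM at 0 h to 8.03, 16.5 and 4.11 at 48 h in B73, while Zm00001d017275 beside it measured 93.7, 54 and 53.8 and then 245, 51.4 and 35.2 (0.24, SE 0.66, adjusted p = 0.83). On chromosome 4, phenylalanine ammonia lyase3 stayed low at 0.634, 0.204 and 1.46 FPKM at 0 h and 0.479, 0.455 and 1.06 at 48 h, beside the falling phenylalanine ammonia lyase5. The CCR-like gene Zm00001d044104 and the glucosyltransferase gene Zm00001d044106 also form a run, on chromosome 3. Coordinates are those of the deposited table, whose genome build no source used here names.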

How the data were processed

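RNA-seq was done on 18 leaf libraries in 6 groups of 3. Reads were trimmed with fastp, aligned with HISAT2 2.0.5 and counted with featureCounts 1.5.0-p3, per the submitters' processing notes, which also name DESeq2 1.20.0. The libraries are directional, per the labels' protocols, and no source used here names the genome build or says whether counting used strand. The authors deposited FPKM values with gene lengths. These values gave whole reads for 100% of entries (within 0.01), 14795794 to 19070464 per library, so the count of reads limits low genes. The deposited scaling differed from the recovered totals by a factor of 0.672 to 1.50, which varied with time in the cold. It was 1.24 to 1.30 in zmzfp69 at 0 h and 0.672 to 0.759 at 48 h. In B73 it was 1.02 to 1.50 at 0 h and 0.677 to 1.02 at 48 h. A lower factor gives higher FPKM than library-total scaling does.

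FPKM values were tested as log2(FPKM + 1) with limma 3.58.1 in R 4.3.3 (group means of 6 groups, trend, 12 residual degrees of freedom) over the 23141 genes that reached 1 FPKM in 3 or more libraries. P-values were adjusted by Benjamini-Hochberg within each comparison and genes called at 0.05. The script was tested on simulated data. The labels call the replicates biological, and nothing more shows that their seedlings were grown separately. The p-values weigh each difference against the spread between libraries within groups, estimated over the 6 groups together.

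Alternatives were a pseudocount of 0.1, no filter, library-total scaling (each library scaled to its recovered reads), quantile normalization, limma-voom on recovered reads, a fit of the compared libraries alone, the replicate number as a block, and each library left out. The members, lists and naming rule were chosen with earlier results of these data known. The rule named, per comparison, the 4 largest called rises and falls with at least 5 FPKM in the higher group (or the 2 smallest p-values where none was called), the most abundant gene per class, classical loci, genes called alike at both times in both genotypes, and genes at the edge of the level filter. Zm00001d006449, Zm00001d006450, Zm00001d015459, Zm00001d015513, Zm00001d018064, Zm00001d020401, Zm00001d023617, Zm00001d027499, Zm00001d030132, Zm00001d032153, Zm00001d037849, Zm00001d050955, Zm00001d051164, Zm00001d051166, Zm00001d051529 and the genes outside the set were named after their values were seen. Of the gene identifiers of the set, 0 matched the RefSeq table. The values of 1 gene of the set are not reported here.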

Additional observations from a re-analysis of the deposited data

How the results depend on the processing

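Of the 40 and 55 genes called at 48 h against 0 h in B73 and zmzfp69, 15 and 31 were called in all 13 other settings, and no called direction of a named gene reversed. At 24 h in B73, 9 calls became 18 with library-total scaling, 15 with quantile normalization and 19 with the compared libraries alone; leaving out single libraries gave 4 to 11. At 24 h in zmzfp69, 14 calls became 9 with no filter, 26 with library-total scaling and 3 with the compared libraries alone, and 5 to 27 with single libraries left out. From 24 to 48 h in B73, 5 calls became 3 with a pseudocount of 0.1, 2 with no filter, 2 with limma-voom and 0 with the compared libraries alone, and 0 to 6 with single libraries left out. From 24 to 48 h in zmzfp69, 38 calls became 18 with the compared libraries alone, and 18 to 35 with single libraries left out. At 48 h against 0 h, leaving out single libraries gave 18 to 36 calls in B73 and 39 to 49 in zmzfp69. Between genotypes at 24 h, 1 call became 0 with the compared libraries alone and 0 to 6 with single libraries left out; at 48 h, 0 calls became 0 to 3. Counts over all genes also changed between these settings. The cause was not tested.

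Replicate numbers did not pair the samples: deviations of same-numbered libraries correlated at -0.499 to 0.557 (median 0.031, 45 pairs) and those of other numbers at -0.591 to 0.519 (median -0.007, 90 pairs), and 6 of 18 libraries correlated best with their own number. With the replicate block, the calls at 24 and 48 h against 0 h were 12 and 41 in B73 and 16 and 55 in zmzfp69, those from 24 to 48 h were 4 and 40, and those between genotypes were 0, 1 and 0 at 0, 24 and 48 h. Genes near 1 FPKM rest on few reads, and 3 libraries per group limit the precision.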
